A study of Mus musculus with 10 samples.

Results

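The genes that make, sense and move cholesterol were followed across the jejunum of mice labelled as lacking Klf9 (Kruppel-like factor 9, a zinc finger transcription factor) and of wild type mice. The group was fixed as a list of 29 genes and measured through probe sets whose platform annotation names 1 of these genes alone. Where a gene had several such probe sets, the one with the highest mean signal over all arrays stood for it. This gave 25 measured genes of 12393 genes on the array with a probe set of their own: 17 of the synthesis pathway, 4 of its regulation and 4 of sterol transport. Acat2, Insig1, Npc1l1 and Soat2 had no such probe set in the table used and were not analysed here.

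The study measured RNA from the jejunum (the stretch of small intestine between duodenum and ileum) of 30-day-old male mice with Affymetrix 430A arrays. The group labelled knockout held 5 animals, Klf9KO by their sample titles, and the group labelled wild type 5 animals, Klf9WT by theirs. The design text gives 1 array per animal. For knockout replicate 1 the title alone gives the genotype, since its further annotation names both genotypes. The labelling protocol also mentions RNA pools. Strain, the deleted stretch of Klf9, feeding state and time of day were not stated in the labels, which name no treatment. Values are scaled signal intensities, a brightness per probe set, compared as log2(signal + 50), which understates the difference of dim genes. Signals of different probe sets cannot be set against each other, so every comparison here is within 1 gene.

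Cholesterol is built from acetyl units through mevalonate, isoprenoid units, squalene and lanosterol in a long chain of enzymes of the cytosol and endoplasmic reticulum. When membrane sterol is low, SCAP carries the SREBP factors to the Golgi, where they are cut and freed to enter the nucleus and switch on the enzyme genes, while INSIG proteins hold the complex back when sterol is high. Enterocytes also take sterol from the gut lumen and return part of it through the ABCG5 and ABCG8 half-transporters, which, like ABCA1, are induced by the oxysterol receptors LXR.

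Klf9 itself went against the label on a pair of arrays, of which 1 was the array whose annotation is ambiguous. Its brightest probe set had a signal of 944 on knockout replicate 1 against 340 to 526 on the other arrays labelled knockout. It had 551 on wild type replicate 1 against 964 to 1320 on the other arrays labelled wild type. Each difference between the labelled groups is therefore also given, where it matters, without both arrays numbered 1. Over all arrays the brightest Klf9 probe set differed by -0.86 ± 0.25 (log2, SE, adjusted p = 0.466 in limma). Klf9 itself thus did not reach an adjusted p under 0.05. The next probe sets by brightness differed by -0.66 ± 0.29 and -0.62 ± 0.25 (SE, adjusted p = 0.614 and 0.569 in limma), and the dimmer ones by -0.29 to 0.06. The defining enterocyte genes were bright on all arrays (villin, Vil1, 9923 to 15218; intestinal fatty acid binding protein, Fabp2, 17640 to 28593). Of the list for the ileum, the bile acid binding protein Fabp6 ranged from 176 (knockout replicate 2) to 1669 on 9 arrays and was 10006 on wild type replicate 3, and the bile acid uptake transporter Slc10a2 was dim on all arrays (2.30 to 58.7) but also highest on wild type replicate 3. Slc51a, a subunit of the basolateral bile acid exporter, was at 4116 to 6198 on all arrays. All 7 smooth muscle markers and all 5 tested fat cell markers had a higher mean on the arrays labelled knockout, and all 5 tested B and plasma cell markers a lower one. Of 6 enterocyte markers 5 had a lower and 1 a higher mean there, with a score difference of -0.12 ± 0.19 (SE over arrays). Of 9 proliferation markers 7 had a higher and 2 a lower mean, with a score difference of 0.08 ± 0.18 (SE over arrays). As mean log2 deviations, smooth muscle markers spanned -0.18 to 0.45 on the arrays labelled knockout and -0.70 to 0.09 on those labelled wild type, and B and plasma cell markers -0.81 to 0.23 and -0.17 to 0.54. The part of these cells in the results below was not tested.

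None of the 25 cholesterol genes passed the threshold between the labelled groups. All 25 were bright enough to be tested, and 0 had an adjusted p under 0.05 in limma, where 0 of all 13579 probe sets (0%) did. The lowest adjusted p among them was 0.583. At an unadjusted p under 0.05 there was 1 gene, Insig2, lower on the arrays labelled knockout, or 4% of the 25 beside 7.89% of all probe sets tested (3.65% higher and 4.24% lower). Counted by gene, the background was 7.37% of all 8290 genes tested. With only 1 gene, the share of the list cannot be told apart from it. For 0 of the 25 were the groups without overlap, beside 1.55% of all probe sets (0.766% with the knockout arrays above and 0.788% below). Of the 25 genes 9 had a higher and 16 a lower mean on the arrays labelled knockout (64% lower, beside 47.5% of all 8290 genes tested). The median log2 difference was -0.06 beside 0.01 over all genes tested. No test of these counts was made. In tissue RNA, fewer cells of a type and less RNA per cell cannot be told apart.

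**Figure D1:**
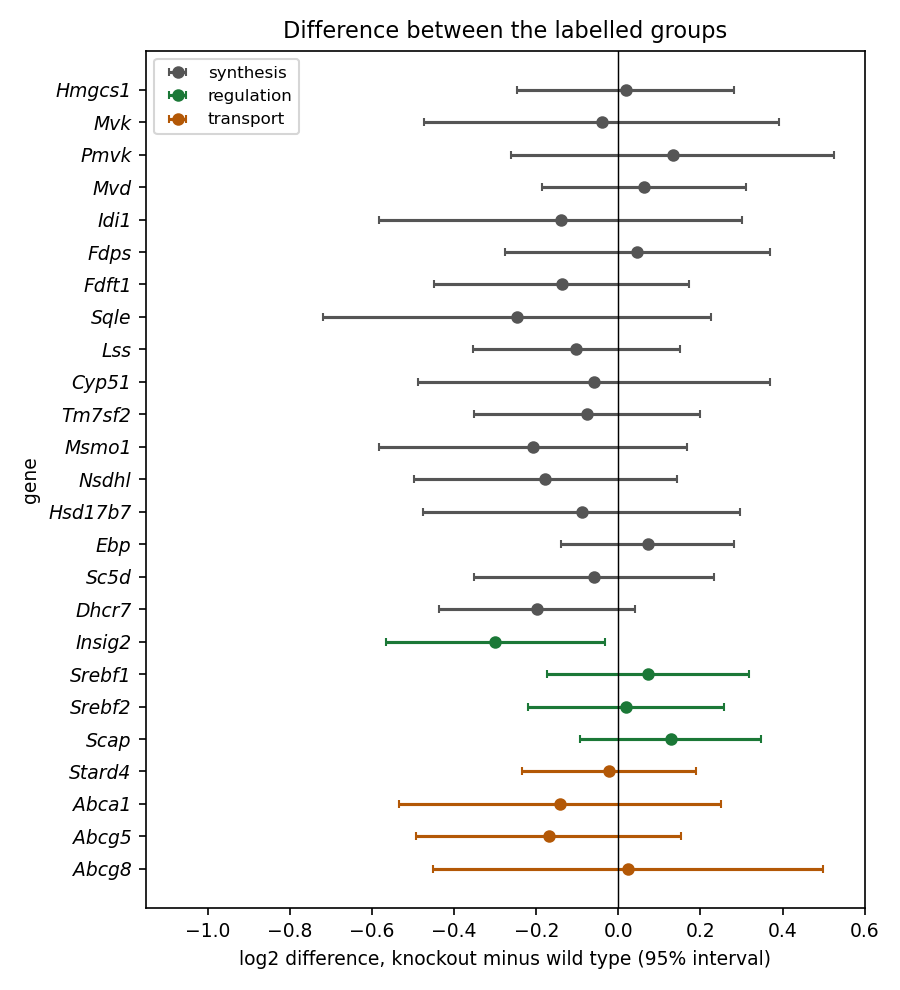
The log2 difference of each of the 25 cholesterol genes, knockout minus wild type, with the 95% interval of the limma fit as a bar and the role of the gene by colour. The points lie between -0.30 (Insig2) and 0.13 (Pmvk), and the interval of Insig2 (-0.57 to -0.03) is the 1 that does not reach 0.

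The 17 synthesis genes had 5 higher and 12 lower means on the arrays labelled knockout (70.6% lower, beside 47.5% of all genes tested). Of the 17, 0 had an unadjusted p under 0.05 (beside 7.37% of all genes tested). In the first steps, which run to mevalonate and its phosphates, Hmgcs1 (HMG-CoA synthase) had 4593, 4123, 4312, 4010 and 5330 on knockout replicates 1 to 5 and 3745, 3753, 5413, 4543 and 4734 on wild type replicates 1 to 5. The ranges nearly coincide, and the log2 difference was 0.02 ± 0.12 (SE, n = 5 and 5). Its 3 dimmer probe sets differed by -0.21, -0.19 and -0.21, so the sign depends on the probe set. The kinases Mvk and Pmvk and the decarboxylase Mvd differed by -0.04 ± 0.20, 0.13 ± 0.18 and 0.06 ± 0.12 (SE). Mvk had 98.4 to 265 on the arrays labelled knockout, the range of its wild type arrays (135 to 241) lying inside.

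The isoprenoid steps showed more movement between animals than between groups. Idi1, the isomerase that makes dimethylallyl diphosphate, had 891, 972, 1222, 970 and 1710 on knockout replicates 1 to 5 and 822, 1037, 1768, 1461 and 1322 on wild type replicates 1 to 5. It was high on knockout replicate 5 and wild type replicate 3 and low on both arrays numbered 1, with a log2 difference of -0.14 ± 0.21 (SE). Fdps, farnesyl diphosphate synthase, ran from 763 (knockout replicate 2) to 1455 (knockout replicate 3), and the wild type arrays lay inside that span, at 1005 to 1168. Fdft1, squalene synthase, differed by -0.14 ± 0.14 (SE), and its other tested probe set by 0.14 ± 0.20 in the opposite direction.

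Sqle, squalene epoxidase and a rate-controlling step after mevalonate, had 1165, 949, 1366, 1328 and 1926 on knockout replicates 1 to 5 and 1184, 1106, 2401, 2062 and 1442 on wild type replicates 1 to 5. It was the most variable of the 25, with an SD over the 10 arrays of 0.42 on the log2 scale, ahead of Abcg8 with 0.40, which exceeded the SD of 94.2% of all tested genes. Its log2 difference was -0.25 ± 0.22 (SE, adjusted p = 0.811), smaller than the spread between animals of either group. Lss, lanosterol synthase, whose probe set name marks probes shared between transcripts, differed by -0.10 ± 0.12 (SE).

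From lanosterol onward, Cyp51, the lanosterol demethylase, had 493, 529, 712, 601 and 1046 on knockout replicates 1 to 5 and 674, 510, 1017, 704 and 594 on wild type replicates 1 to 5. As for Idi1 and Sqle, knockout replicate 5 and wild type replicate 3 stood high, and the log2 difference was -0.06 ± 0.20 (SE). Msmo1 and Nsdhl, which take part in removing the C4 methyl groups, differed by -0.21 ± 0.17 and -0.18 ± 0.15, and Hsd17b7, of the same complex, by -0.09 ± 0.18 (SE). Tm7sf2, a sterol reductase, Ebp, the sterol isomerase, and Sc5d, the sterol desaturase, differed by -0.08 ± 0.13, 0.07 ± 0.10 and -0.06 ± 0.14 (SE). Dhcr7, which closes the pathway by reducing 7-dehydrocholesterol, had 396, 390, 473, 429 and 515 on knockout replicates 1 to 5 and 517, 489, 454, 487 and 614 on wild type replicates 1 to 5. It was under the wild type mean on 4 of 5 arrays labelled knockout, and the log2 difference of -0.20 ± 0.11 (SE, adjusted p = 0.686) had the lowest p of the synthesis genes.

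Among the regulators, Insig2, which retains the SREBP and SCAP complex in the endoplasmic reticulum, had 528, 414, 481, 511 and 455 on knockout replicates 1 to 5 and 713, 456, 682, 624 and 551 on wild type replicates 1 to 5. All 5 knockout arrays were below the mean of the wild type arrays, and the groups overlapped only through wild type replicate 2. The log2 difference was -0.30 ± 0.12 (SE, unadjusted p = 0.0302, adjusted p = 0.583 in limma). Its other probe sets differed by -0.23 ± 0.13 and -0.26 ± 0.17 (SE). On both of them knockout replicate 5 was high (507 and 268), and the order of the arrays labelled knockout was not that of the brightest probe set. Within the 3 wash runs, told apart here by gaps of over 30 minutes between the hybridization times in the fluidics records (the design text calls the handling parallel), the brightest probe set differed by -0.26, -0.36 and -0.25, and within fluidics module 4, the 1 module that held both labels, by -0.21. Without both arrays numbered 1 it differed by -0.28 (adjusted p = 0.508), and without wild type replicate 2 by -0.39 (0.492). The adjusted p lay between 0.419 and 0.999 over all alternatives tried. The unadjusted p was 0.05 or more without knockout replicate 2 or 5, without wild type replicate 1, 3 or 4 (log2 differences -0.29 to -0.24), without both arrays numbered 1 and with the fluidics module as a block.

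**Figure D2:**
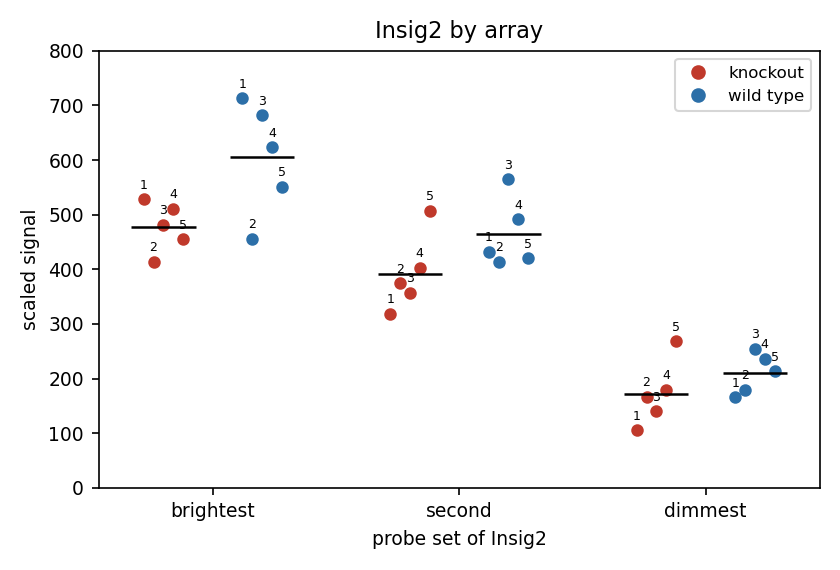
Scaled signal of the 3 Insig2 probe sets, from brightest to dimmest, with 1 point per array, replicate numbers beside the points and group means as lines. The knockout mean lies below the wild type mean on each (478 against 605 on the brightest, 172 against 210 on the dimmest), with overlapping points throughout.

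The factors themselves lay close together in both groups. Srebf1, which drives fatty acid as well as sterol genes, had 822 to 1167 on the arrays labelled knockout and 790 to 1003 on those labelled wild type, with a log2 difference of 0.07 ± 0.11 (SE). Srebf2, the main factor of the cholesterol genes, had 642 to 834 and 605 to 823, and differed by 0.02 ± 0.11 (SE). Scap, the sterol sensor that escorts both, had 391 to 458 and 336 to 438. All 5 arrays labelled knockout had Scap above the wild type mean, with a difference of 0.13 ± 0.10 (SE, adjusted p = 0.794). The SDs of Srebf1, Srebf2 and Scap over all arrays, 0.16, 0.15 and 0.13, were below the median of 0.21 over all tested genes.

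The transporters differed less between the groups than among the arrays labelled knockout. Abca1, the exporter that loads apolipoprotein A-I, had 1610, 1856, 1028, 1819 and 903 on knockout replicates 1 to 5 and 1648, 1361, 1597, 1529 and 1544 on wild type replicates 1 to 5. Knockout replicates 3 and 5 lay below every other array, while the wild type arrays were close together (log2 SD 0.10 against 0.47). The log2 difference was -0.14 ± 0.18 (SE). Its other tested probe set, which is dimmer, differed by -0.25 ± 0.18 (SE). It had 327, 159, 193, 244 and 125 on knockout replicates 1 to 5 and 194 to 309 on the wild type arrays. There knockout replicate 2, the highest array of the brightest probe set, lay below knockout replicate 3, so the order of the arrays depends on the probe set. Abcg5 had 6620, 5290, 3570, 5429 and 4061 on knockout replicates 1 to 5 and 5036, 5880, 4876, 5762 and 6008 on wild type replicates 1 to 5. The same arrays, knockout replicates 3 and 5, were again lowest, and the difference was -0.17 ± 0.15 (SE). The enterocyte marker score (6 genes, mean log2 deviation) was 0.23, -0.01, -0.35, 0.02 and -0.19 on knockout replicates 1 to 5, with the same arrays lowest among those labelled knockout, and 0.07, 0.28, -0.41, -0.13 and 0.49 on wild type replicates 1 to 5. Its part in the transport values was not tested.

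Abcg8, the partner of Abcg5, had 1745, 1446, 727, 1005 and 839 on knockout replicates 1 to 5 and 1469, 1216, 782, 1008 and 1017 on wild type replicates 1 to 5. Knockout replicate 3, wild type replicate 3 and knockout replicate 5 were its lowest arrays, and the 4 highest were those of wash run 1. The difference of 0.02 ± 0.22 (SE) was a small part of that spread. Stard4, a cytosolic sterol carrier, was the steadiest of the transport genes, at 2151 to 2827 on all arrays, and differed by -0.02 ± 0.10 (SE). Its dimmer probe set differed by -0.27 ± 0.15 and was high on wild type replicate 1 (1849, against 866 to 1285 on the others).

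**Figure D3:**
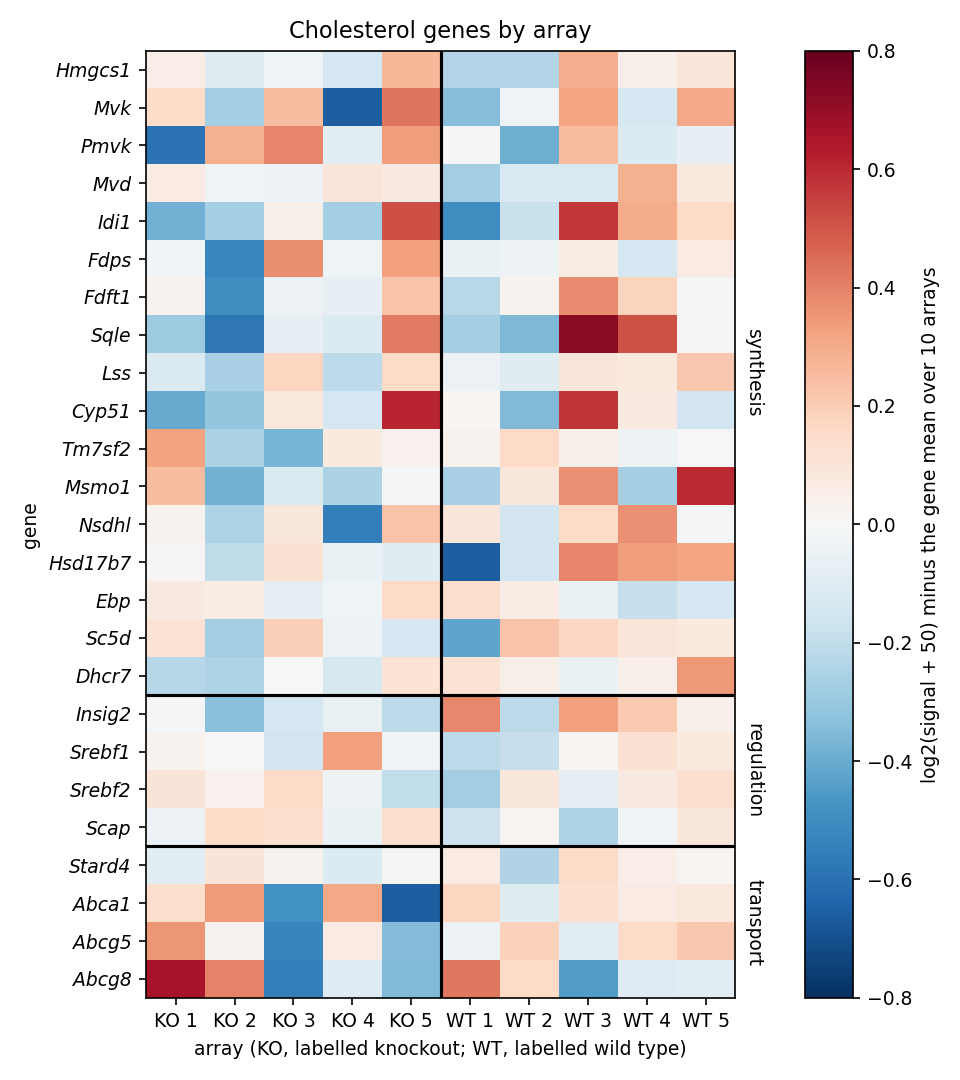
Deviation of log2(signal + 50) from the gene's mean over all 10 arrays, for 25 genes in rows, ordered by role, and 10 arrays in columns, with a vertical line between the labels. Most synthesis rows are red on knockout replicate 5 and wild type replicate 3 and blue on knockout replicate 2, the array lowest for 6 of 17, and Abca1, Abcg5 and Abcg8 are blue on knockout replicates 3 and 5.

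A score per array, the mean log2 deviation over the genes of a role, compared synthesis with transport. No p is given for these scores, because the genes were chosen with results known. The synthesis score was -0.06, -0.24, 0.06, -0.15 and 0.21 on knockout replicates 1 to 5 and -0.17, -0.09, 0.24, 0.08 and 0.11 on wild type replicates 1 to 5. The groups overlapped over most of their range, and the difference was -0.07 ± 0.11 (SE over arrays), with a 95% interval from -0.32 to 0.18. The transport score was 0.27, 0.22, -0.38, 0.04 and -0.34 on knockout replicates 1 to 5 and 0.15, 0.00, -0.06, 0.04 and 0.06 on wild type replicates 1 to 5. It spread further on the arrays labelled knockout (SD 0.30) than on those labelled wild type (0.08), a contrast in spread that was not tested. The difference was -0.08 ± 0.14 (SE) and became 0.01 without knockout replicate 3 and -0.00 without knockout replicate 5.

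Synthesis minus transport differed by 0.01 ± 0.23 (SE, 95% interval -0.52 to 0.54), and its sign turned in 4 of the fits with 1 array left out (-0.13 without knockout replicate 5, -0.10 without knockout replicate 3, -0.07 without wild type replicate 1 and -0.02 without wild type replicate 2). The regulation score differed by -0.02 ± 0.04 (SE). Without both arrays numbered 1 the differences were -0.12 for both synthesis and transport, -0.05 for regulation and 0.01 for synthesis minus transport. Within wash runs 1, 2 and 3 synthesis differed by -0.02, -0.21 and 0.10, and transport by 0.16, -0.16 and -0.39. The sign was thus not shared by the runs for either score. Within module 4 synthesis differed by 0.22 and transport by -0.36, on 1 array labelled knockout, replicate 5, which also is the knockout array of run 3. Modules 1 and 2 held only arrays labelled knockout and module 3 only arrays labelled wild type. Outside module 4, label and module therefore cannot be told apart.

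**Figure D4:**
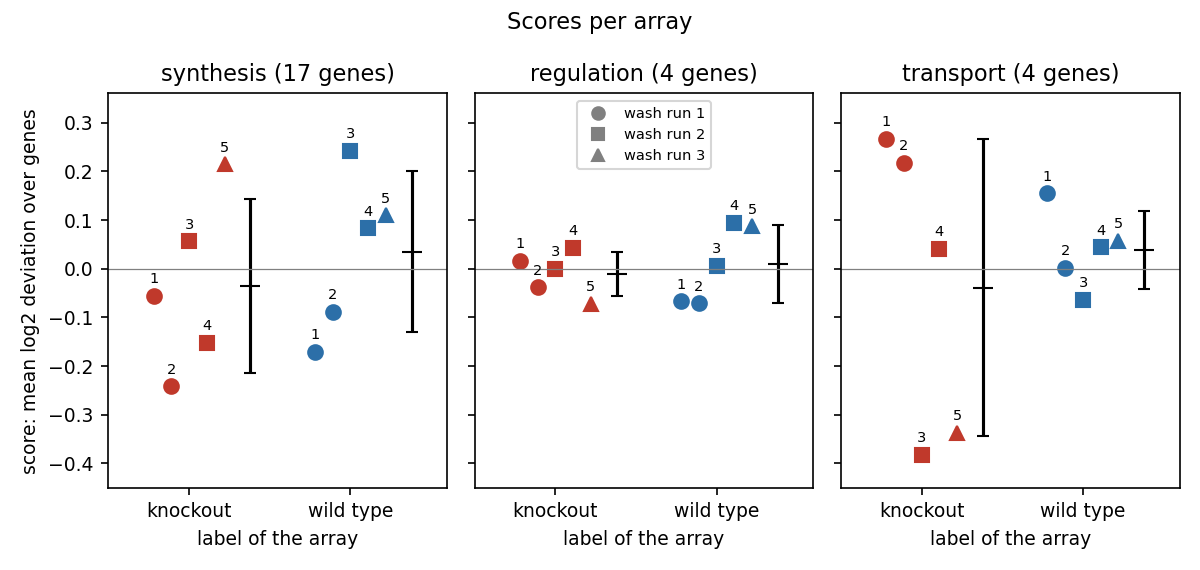
Synthesis, regulation and transport scores (mean log2 deviation over genes), with 1 point per array, replicate numbers beside the points, shapes for the wash run and bars for the mean ± SD of 5 arrays. Synthesis overlaps between the labels, with the 4 arrays of run 1 (circles) all below 0, and the transport points spread furthest on the arrays labelled knockout.

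Across animals, whatever the label, many synthesis genes moved together. After the group means were removed, the median Pearson r over the 136 pairs of synthesis genes was 0.357, and 107 pairs were positive, beside a median of 0.0119 over all 34357905 pairs of tested genes. These correlations share the same 10 arrays and are descriptions, with no p. Idi1, Hmgcs1, Fdft1, Lss and Sqle followed the mean of the other synthesis genes most closely over the 10 arrays (r = 0.901, 0.857, 0.847, 0.842 and 0.837). Ebp and Tm7sf2 did not (r = -0.354 and -0.0557). Knockout replicate 5 was among the 3 highest arrays for 12 of 17 synthesis genes and wild type replicate 3 for 10, while knockout replicate 2 was among the 3 lowest for 12 and wild type replicate 1 for 9.

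Transport genes ran the other way. Over the 68 pairs of a synthesis and a transport gene the median r was -0.315, with 17 pairs positive, after the group means were removed. Abcg8 had r = -0.726 with the mean of the synthesis genes and Abca1 r = -0.574, while Stard4 had r = 0.322 and Abcg5 -0.340. The regulators hardly followed synthesis, with r of 0.252 for Insig2, 0.0456 for Srebf1, 0.00696 for Srebf2 and -0.0581 for Scap. On knockout replicate 5, high synthesis met low transport (0.21 and -0.34), and on knockout replicate 2 low synthesis met high transport (-0.24 and 0.22).

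**Figure D5:**
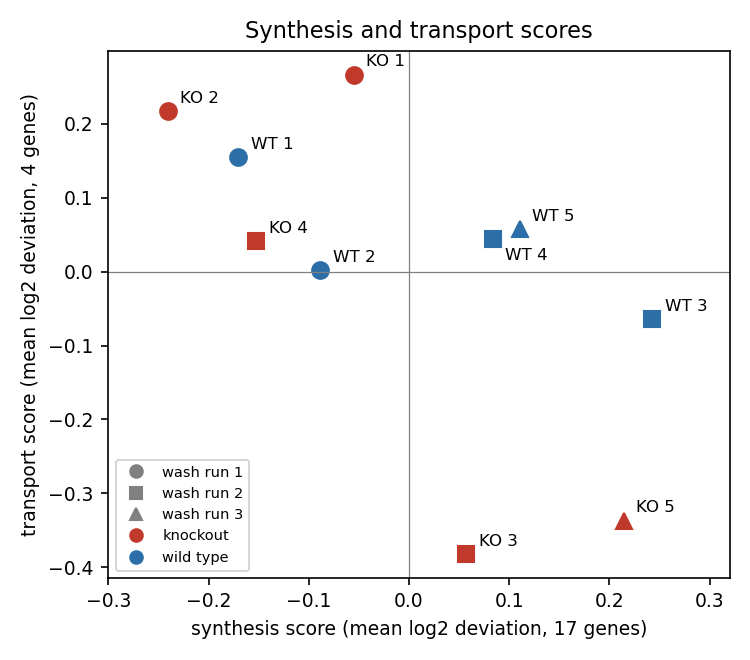
Transport score against synthesis score (both mean log2 deviations), with 1 point per array, red for the label knockout and blue for wild type, and shapes for the wash run. Arrays of run 1 lie at the left, knockout replicates 3 and 5 at the lower right, and both labels are found on either side.

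The wash runs moved with this pattern. Run 1, with 2 arrays of each label, had synthesis scores of -0.24 to -0.06, run 2, also with 2 of each, -0.15 to 0.24, and run 3, with 1 of each, 0.11 and 0.21. The mean transport scores of runs 1, 2 and 3 were 0.16, -0.09 and -0.14. Of the 17 synthesis genes 15 had a higher mean in run 2 than in run 1 (88.2%, beside 59.4% of all tested genes) and 15 in run 3 than in run 1 (beside 50.9%). With run means removed as well, an alternative added after seeing the data, the median r among synthesis genes was 0.225 and that between synthesis and transport -0.231. Nothing in the labels ties the runs to the order of dissection or extraction, and a wash effect and a difference between animals cannot be told apart.

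Markers of other cells moved in part with synthesis. The score of 9 proliferation markers, their mean log2 deviation, was -0.31, -0.11, 0.57, -0.08 and 0.13 on knockout replicates 1 to 5. It was -0.33, 0.14, 0.21, -0.06 and -0.16 on wild type replicates 1 to 5. The median r between a synthesis gene and a proliferation marker was 0.311 over 153 pairs, beside 0.726 among the proliferation markers themselves. Enterocyte markers (6 measured) were lowest on knockout replicate 3 and wild type replicate 3 (-0.35 and -0.41). Wild type replicate 3, highest in synthesis, was also the array with the high Fabp6. The part of these cell types and of the gut segment sampled was not tested.

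As the synthesis genes moved together, their promoters were read in the RefSeq promoter table (GRCm38.p6, 250 bases before to 50 after each annotated start). Windows of 21 of the 25 genes were searched. Fdps, Fdft1 and Sqle had no entry in the table and are named only. Stard4 was left out of the search, so the transport counts below cover 3 genes. Each window was searched on both strands for TCACNCCAC, a core of the sterol regulatory element bound by SREBP, for CCAAT, the box of NF-Y, a usual partner of SREBP, and for CCACNCCC, the CACCC box that KLF and Sp factors can bind. CCAAT stood in all 14 synthesis genes with a promoter (14 of 17 windows, 82.4%), where 42.3% of 17492 protein-coding genes and 38.2% of their windows hold it. The 14 include Ebp and Tm7sf2, which did not follow the other synthesis genes (r = -0.354 and -0.0557). The box stood in 3 of 4 regulators and 2 of 3 transport genes. The transport genes with it were Abcg5 and Abcg8, whose windows overlap. The box of Abcg5 lies in the shared bases and is also counted for Abcg8. The window of a further annotated start of Abcg8 held no box. TCACNCCAC was found in 1 of the 14, Hmgcs1, and in 1.41% of protein-coding genes. CCACNCCC was found in 5 of the 14 (35.7%, beside 21.6%), Hsd17b7, Dhcr7, Msmo1, Mvd and Lss, and in 0 of 3 transport genes. A match is a description of letters, and no match says only that these letters are not in this window.

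The windows of Hmgcs1 (chr13:119690101-119690400, plus strand), Idi1 (chr13:8885356-8885655, plus strand), Lss (chr10:76531355-76531654, plus strand) and Mvk (chr5:114444019-114444318, plus strand) are shown because these genes followed the synthesis score most closely among those with a promoter in the table. Capitals mark CCAAT on either strand (ATTGG when read from the other) and, in Hmgcs1, also TCACCCCAC. The matches do not overlap each other.
Hmgcs1: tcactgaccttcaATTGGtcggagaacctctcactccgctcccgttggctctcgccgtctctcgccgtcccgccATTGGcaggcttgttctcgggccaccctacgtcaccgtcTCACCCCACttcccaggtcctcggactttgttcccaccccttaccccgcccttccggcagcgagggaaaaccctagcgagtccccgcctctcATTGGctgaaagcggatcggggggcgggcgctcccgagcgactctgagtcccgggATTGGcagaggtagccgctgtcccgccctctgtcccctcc
Idi1: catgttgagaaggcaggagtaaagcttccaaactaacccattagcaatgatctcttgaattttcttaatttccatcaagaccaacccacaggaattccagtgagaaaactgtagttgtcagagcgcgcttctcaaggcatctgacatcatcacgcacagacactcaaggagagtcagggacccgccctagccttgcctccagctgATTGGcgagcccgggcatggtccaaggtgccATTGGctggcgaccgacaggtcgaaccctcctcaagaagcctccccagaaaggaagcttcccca
Lss: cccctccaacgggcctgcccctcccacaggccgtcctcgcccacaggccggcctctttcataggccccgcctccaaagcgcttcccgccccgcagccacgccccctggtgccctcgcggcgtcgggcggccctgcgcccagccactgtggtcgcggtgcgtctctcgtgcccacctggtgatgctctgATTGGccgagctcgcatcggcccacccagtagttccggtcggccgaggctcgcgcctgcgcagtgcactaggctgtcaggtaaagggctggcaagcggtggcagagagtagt
Mvk: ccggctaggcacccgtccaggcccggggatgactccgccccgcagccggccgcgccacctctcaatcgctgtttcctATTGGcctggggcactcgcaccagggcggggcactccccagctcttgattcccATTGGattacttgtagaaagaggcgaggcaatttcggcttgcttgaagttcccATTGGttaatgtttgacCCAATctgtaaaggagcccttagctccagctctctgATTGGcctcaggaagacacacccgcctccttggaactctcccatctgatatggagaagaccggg
Hmgcs1 holds 4 CCAAT boxes and 1 sterol element, which begins 137 bases before the start, Idi1 holds 2 boxes, Lss 1 and Mvk 5.

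Abcg5 and Abcg8 lie head to head on chromosome 17, with annotated starts 110 bases apart, so that their windows share 209 bases. The window of Abcg8 (chr17:84682871-84683170, plus strand) is shown because both genes are read from it in opposite directions and both were lowest on knockout replicate 3. Capitals mark its 2 CCAAT boxes.
Abcg8: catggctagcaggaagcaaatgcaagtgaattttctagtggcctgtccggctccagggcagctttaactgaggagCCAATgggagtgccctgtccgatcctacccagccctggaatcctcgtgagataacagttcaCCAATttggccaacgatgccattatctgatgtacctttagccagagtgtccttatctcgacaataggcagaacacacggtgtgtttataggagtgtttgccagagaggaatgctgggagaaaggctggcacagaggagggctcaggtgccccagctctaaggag
Insig2, the 1 gene with an unadjusted p under 0.05, has 3 annotated starts. The window that holds all 3 of its CCAAT boxes (chr1:121332540-121332839, minus strand) is shown, with the boxes in capitals.
Insig2: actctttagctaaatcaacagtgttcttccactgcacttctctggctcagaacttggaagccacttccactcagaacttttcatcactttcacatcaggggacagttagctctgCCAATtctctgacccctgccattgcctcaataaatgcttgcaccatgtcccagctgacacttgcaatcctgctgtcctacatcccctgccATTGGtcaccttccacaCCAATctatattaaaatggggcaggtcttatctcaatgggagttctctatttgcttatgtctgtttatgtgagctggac
None of the 3 Insig2 windows held TCACNCCAC or CCACNCCC.

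Neighbouring lipid genes were taken from lists chosen with earlier results known. Of 13 tested genes of fatty acid synthesis and its supply, many of them SREBP-1 targets, 10 had a higher and 3 a lower mean on the arrays labelled knockout (median log2 difference 0.12). Lower means made up 23.1%, beside 47.5% of all 8290 genes tested. Of the 13, 0 passed and 1 had an unadjusted p under 0.05 (7.69%, beside 7.37% of all genes tested). That was Me1, malic enzyme, with 365 to 1084 on the arrays labelled knockout and 289 to 473 on those labelled wild type (log2 0.63 ± 0.23 SE, adjusted p = 0.524). Another, dimmer probe set of Me1 differed by 1.29 ± 0.42 (SE, adjusted p = 0.478), so the size depends on the probe set. Fasn, fatty acid synthase, differed by 0.26 ± 0.14 and Fads2, a fatty acid desaturase, by 0.19 ± 0.14 (SE). The fat cell marker score was above the wild type mean on all 5 arrays labelled knockout. It was 0.11 to 0.77 there against -0.94 to 0.78 on those labelled wild type (mean log2 deviation). The part of fat cells was not tested.

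Of 14 tested genes of sterol handling outside the list, 9 had a higher and 5 a lower mean (35.7% lower, beside 47.5% of all genes tested). Of the 14, 0 passed and 2 had an unadjusted p under 0.05, 1 in each direction (14.3%, beside 7.37% of all genes tested). With so few genes these shares cannot be told apart. Ggps1, geranylgeranyl diphosphate synthase, which draws on farnesyl diphosphate, had 226 to 288 on the arrays labelled knockout and 252 to 342 on those labelled wild type (log2 -0.26 ± 0.11 SE, adjusted p = 0.574). Npc2, the lysosomal cholesterol binding protein, had 4218 to 4997 and 3243 to 4435 (0.23 ± 0.10 SE, adjusted p = 0.623). Nr1h3, the receptor LXR alpha, differed by 0.18 ± 0.14 (SE). The groups overlapped for each of these genes.

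The 8 genes outside the list whose levels most resembled the synthesis score over the 10 arrays were Ctnnal1, an alpha-catenin relative, Med30, a Mediator subunit, 1810065E05Rik, Ccz1, Cbr4, a carbonyl reductase of mitochondria, Slc30a7, a zinc transporter of the Golgi, Fgfbp1, a carrier of fibroblast growth factors, and Mbnl1, a splicing factor. Their Pearson r lay between 0.861 and 0.897, picked as the highest of all tested genes. Without knockout replicate 2 and wild type replicate 3, the arrays farthest from the median score, r was 0.745 to 0.872. Their log2 differences between the labelled groups were -0.17 to -0.02.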

How the data were processed

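Per the series' design text, the authors quantified the array images with MAS 5.0. Their deposited table holds linear signal intensity for each probe set, with a 2% trimmed mean of 500.164 to 500.202 on every array. Other deposited files are fluidics records, from which, per the file headers, module and hybridization time were read (4 modules, 3 wash runs). Arrays were rescaled to a trimmed mean of 500 and log2(signal + 50) was taken. Probe sets whose mean exceeded the 40th percentile (123) were kept, as were all 7 Klf9 probe sets, and 64 controls were dropped, leaving 13579. Genes came from the platform annotation (20380 probe sets with 1 symbol, 691 with several, 1555 with none).

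Groups were compared with limma 3.58.1 in R 4.3.3 (lmFit, eBayes with trend, two-sided, Benjamini-Hochberg over all tested probe sets, threshold 0.05), a step tested on simulated data. SEs of genes are limma's, those of scores are over arrays. Having 5 arrays a group limits the precision. Named genes are the list members, Klf9, the 3 genes of lowest p in each neighbouring list and the 8 most like the synthesis score, and cell markers were named beside them after their values were seen. Members and lists were chosen with earlier results of these data known. Alternatives were other offsets, filters, normalizations and variance models, blocks for replicate number, wash run and module, arrays left out, and averaging the probe sets of a gene.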

Additional observations from a re-analysis of the deposited data

Results flagged for a closer look

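Sc5d, the sterol desaturase, was low on 1 array within its group on its brighter probe set. On wild type replicate 1 its signal was 1036, while the next lowest wild type array had 1481, a gap that made up 0.764 of the group's log2 range (critical value 0.71 for 5 arrays). This was 1 of 50 sets of 5 arrays checked, and chance alone marks about 1 in 20. Klf9 goes against the label on the same array. The dimmer probe set of Sc5d did not show the low value. It was highest on wild type replicate 1 (200, against 158 to 197 on the other arrays) and differed by 0.05 ± 0.10 (SE). On the brighter probe set the log2 difference of Sc5d was -0.06 with that array and -0.17 without it.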

How the results depend on the processing

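No gene of the list had an adjusted p under 0.05 in any alternative in which it was tested (25 alternatives, or 24 for Mvk and Pmvk, which the 60th percentile filter removed; lowest 0.419), and Insig2 kept its sign in all of them (-0.39 to -0.21). The number of probe sets called, 0 of 13579, was 0 to 5 with 1 array left out (5 without knockout replicate 1, 3 without knockout replicate 5, 1 without wild type replicate 1) and 9 without both arrays numbered 1. At an unadjusted p under 0.05 there were 1072 probe sets, 1624 with no filter and 471 with the module as a block. The 1 gene of the list at that threshold was Dhcr7 without knockout replicate 5 and Msmo1 without both arrays numbered 1, and there were 2, Cyp51 and Abca1, with the module as a block. That block rests on module 4 with knockout replicate 5 alone on the knockout side, and with it the score differences were 0.22 for synthesis, -0.36 for transport and 0.58 for synthesis minus transport. Signs turned there for Mvk (0.52), Mvd (-0.011), Idi1 (0.46), Fdft1 (0.13), Sqle (0.34), Lss (0.16), Cyp51 (0.75), Msmo1 (0.072), Nsdhl (0.12), Dhcr7 (0.070), Srebf2 (-0.28), Stard4 (0.10) and Abcg8 (-0.38). Cyclic loess turned Abcg8 (-0.0010), and averaging the probe sets of a gene turned Hmgcs1 (-0.15), Fdft1 (0.00049) and Srebf2 (-0.0053). The cause was not tested. Without both arrays numbered 1 the sign turned for Hmgcs1 (-0.050), Mvd (-0.0079), Cyp51 (0.030), Srebf2 (-0.071), Stard4 (0.010) and Abcg8 (-0.031). With 1 array left out at a time, the log2 differences that changed sign ranged from -0.046 to 0.093 for Hmgcs1, -0.15 to 0.12 for Mvk, -0.040 to 0.18 for Fdps, -0.22 to 0.076 for Cyp51, -0.17 to 0.0076 for Tm7sf2, -0.17 to 0.0031 for Sc5d, -0.0013 to 0.12 for Srebf1, -0.048 to 0.072 for Srebf2, -0.084 to 0.013 for Stard4, -0.24 to 0.0057 for Abca1 and -0.14 to 0.16 for Abcg8. Same-numbered arrays shared a wash run, but the labels give the numbers no meaning and the correlation of their deviations exceeded 0.1 in 3 of 5 pairs (0.183, 0.0324, 0.278, 0.120 and -0.117), short of every pair, so the numbers were not used as pairs; 3 of 5 arrays of each group correlated best with their own number. The replicate block gave 0 probe sets called and 1232 at an unadjusted p under 0.05, with an adjusted p of 0.467 for Insig2. No setting shows that groups were alike: the intervals allow log2 differences down to -0.72 (Sqle) and up to 0.53 (Pmvk).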
